A study of Homo sapiens with 9 samples.

Results

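Tubulin isotypes are the separate genes that encode alpha and beta tubulin. The members described here are 4 alpha tubulin genes (TUBA1A, TUBA1B, TUBA1C and TUBA4A) and 6 beta tubulin genes (TUBB, TUBB2A, TUBB2B, TUBB3, TUBB4B and TUBB6), taken by name and not by their values, 10 of the 57338 genes in the expression table. The labelled cells were HEK293T, which derive from human embryonic kidney and carry the SV40 large T antigen. The cells had received empty vector, human PRM1 fused to EGFP (hPRM1) or human PRM2 fused to EGFP (hPRM2) by transient transfection, and all of them were sorted for high EGFP 3 days later. Each group had 3 libraries made from the 3' ends of mRNA, and no separate cultures are stated for them, so the p-values measure only the spread between these libraries, which may be technical. Protamines are the small basic proteins that replace histones in sperm nuclei. The comparisons ask how the RNA of tubulin genes differed between libraries labelled empty vector, hPRM1 and hPRM2. The hPRM1 label was not borne out, as PRM1 was listed at 0 in all 9 libraries.

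Microtubules are hollow tubes built from dimers of alpha and beta tubulin, and they form the mitotic spindle, the tracks for transport and the core of cilia. The isotypes of each family share most of their sequence and differ mainly in the acidic tail at the end of the protein, which extends from the microtubule surface and is the place of most tubulin modifications. TUBA1B and TUBB are the usual main isotypes of dividing cells, TUBA1A, TUBB2B and TUBB3 are prominent in neurons, and TUBB4B is known from ciliated cells. Cells also tune the amount of tubulin mRNA to the pool of free tubulin, through a factor (TTC5) that binds the beginning of the new tubulin chain on the ribosome and leads to decay of its mRNA.

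The coding sequences were read from the GENCODE 29 transcripts (GRCh38). The first 30 coding bases are shown for 5 members because the start of the chain is the part that this control reads, with the first 4 codons in capitals.
TUBA1B: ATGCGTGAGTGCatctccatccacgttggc
TUBA4A: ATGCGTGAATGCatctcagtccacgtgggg
TUBB: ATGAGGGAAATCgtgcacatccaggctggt
TUBB2A: ATGCGCGAGATCgtgcacatccaggcgggc
TUBB2B: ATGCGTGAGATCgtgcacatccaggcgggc
All 4 alpha members ended this stretch of capitals with TGC, and all 6 beta members ended it with ATC. The last 20 codons before the stop codon are shown for 3 beta members, because this tail is where isotypes differ, with the codons for the acidic residues glutamate and aspartate in capitals.
TUBB2A: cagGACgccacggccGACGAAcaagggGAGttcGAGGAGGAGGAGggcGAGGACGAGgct
TUBB2B: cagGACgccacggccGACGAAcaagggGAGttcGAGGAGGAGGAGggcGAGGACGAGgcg
TUBB3: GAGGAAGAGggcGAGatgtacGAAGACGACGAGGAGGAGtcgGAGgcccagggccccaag
The tails of the 6 beta members held 11 acidic codons each. Over the whole coding sequence, identity between alpha members ran from 84.4% to 97.2% (TUBA1A and TUBA1B), and identity between beta members ran from 80.9% to 98.1% (TUBB2A and TUBB2B). An alpha and a beta member shared between 51.9% and 54.0%.

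The members lie on 6 chromosomes (GENCODE 29 coordinates, GRCh38). TUBA1A (chr12:49184796-49189324, minus strand), TUBA1B (chr12:49127782-49131397, minus) and TUBA1C (chr12:49188736-49274603, plus) are neighbours, and TUBA4A is on chr2:219249711-219278170 (minus). TUBB2A (chr6:3153669-3157526, minus) and TUBB2B (chr6:3224261-3231730, minus) are also neighbours, while TUBB lies elsewhere on the same chromosome (chr6:30720201-30725426, plus). TUBB3 (chr16:89921392-89938761), TUBB4B (chr9:137241213-137243707) and TUBB6 (chr18:12307669-12344320) are on the plus strand. Because the reads come from 3' ends, every stretch of 50 bases in the last 500 bases of each main transcript was searched in the transcripts of all other genes. None was shared for TUBA1C, TUBA4A, TUBB, TUBB2B and TUBB6, so these members can be told from their paralogs at this end. The shared part was 22.8% for TUBB4B, 29.05% for TUBA1A, 49.9% for TUBA1B and 56.1% for TUBB2A, and values of these members are uncertain to the extent that reads were split among paralogs. For TUBB3 it was 98.9%, shared with a read-through transcript (AC092143.1), TUBB2A, TUBB2B, TUBB4A and TUBB4B, and the part of each was not counted. AC092143.1 was listed at 0 in 8 of 9 libraries and at 2.54 RPKM in hPRM2 library 3. Of 38 tubulin pseudogenes in the table, 3 were above 0 in any library, and their summed level stayed between 0.181 and 39.2 RPKM. TUBA1A and TUBA1C overlap on opposite strands, and the use of strand in counting is not given in the sources used here.

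Levels were deposited as RPKM, read counts scaled by gene length and by the reads on genes of the library, and the number of 3' reads does not depend on length, so levels of different genes per length carry that limit. Estimated reads on genes were 7930000 to 10790000 in the empty vector libraries, 4210000 to 5860000 in those labelled hPRM1 and 1270000 to 2650000 in those of hPRM2. PRM2 stood at 71224, 60050 and 36130 RPKM in the hPRM2 libraries and was listed at 0 in the other 6. PRM1 was listed at 0 in all 9 libraries, so this check does not bear out the label of the hPRM1 libraries, and they are called "the libraries labelled hPRM1" throughout. They also carry library numbers from another series than the other 6 libraries, so that series and the construct cannot be told apart. In them, 9 of 10 erythroid markers (hemoglobin genes and others) were above 0 in each library and summed to between 2061096 and 2267449 RPKM, 83.2% to 86.6% of all RPKM of a library, against 2.16 to 18.2 RPKM in the other 6. The markers of platelets (8 of 8 above 0), neutrophils and monocytes (7 of 8, FCGR3B at 0) and lymphocytes (8 of 8) summed there to 335 to 589, 3280 to 4234 and 634 to 878 RPKM, and in the other 6 libraries to at most 32.1, 20.7 and 0.406 RPKM. Of 10 genes typical of HEK293T, 6 were at 0 in all 3 libraries labelled hPRM1 (LIN28B, IGF2BP1, PAX2, NEFL, NEFM and HOXC10), and the sum of the 10 was 0.646 to 1.12 RPKM there, 197 to 290 RPKM with empty vector and 145 to 215 RPKM with hPRM2. The markers of the labelled cell line were thus nearly absent from these libraries, and every comparison below that uses them carries this fact. In bulk RNA, fewer cells of a type and less RNA per cell cannot be told apart.

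With empty vector, TUBA1B and TUBB were by far the most abundant isotypes. TUBA1B stood at 1710, 1493 and 2638 RPKM and TUBB at 1228, 1155 and 1837 RPKM in libraries 1, 2 and 3, and the ranges of the pair overlapped. TUBB4B followed (267 ± 6.1 RPKM, SD, n = 3), then TUBA1C (182 ± 6.9), TUBB2B (151 ± 2.8), TUBA1A (108 ± 5.6) and TUBB2A (39.1 ± 1.7), each above the next without overlap. This order is of levels per length. The annotated main transcripts ran from 1595 bases (TUBB2A) to 3001 bases (TUBA1C), so the order by reads can differ. TUBB6 (30.8 ± 8.4) and TUBB3 (19.5 ± 11) overlapped, and TUBA4A was lowest at 0.398, 3.61 and 1.75 RPKM.

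In the libraries labelled hPRM1, 7 of the 10 isotypes were lower than with empty vector, among them the main isotypes TUBA1B and TUBB at less than 10% of their level, and TUBA4A alone was higher. TUBB2B, a neuronal isotype well expressed with empty vector, was listed at 0 in all 3 of them. A call in limma needed both a 2-fold change and an adjusted p no larger than 0.05, and 62.5% of the 13588 genes tested were called lower and 12.9% higher by the same rule, so that the count of lower members stands close to that of all genes. The groups did not overlap for any member, with 9 lower and 1 higher, beside 66.4% and 14.5% of all genes. The median log2 difference was -3.83 over the members and -1.72 over all genes tested. Since that median of all genes is far from 0, the libraries were also rescaled by median-of-ratios, which brought it to -0.12. The same 7 members were called lower under that scaling, where 29% of genes were, and 3 members were called higher (TUBA4A, TUBA1A and TUBB2A), where 28.9% of genes were. Quantile scaling called the same members in both directions, beside 34.4% of genes lower and 25.1% higher.

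TUBA1B, the usual main alpha isotype, stood at 133, 135 and 144 RPKM in the libraries labelled hPRM1, all below the lowest empty vector library. Its mean was 14.2-fold lower (log2 difference -3.77 ± 0.23 SE, limma adjusted p = 1.55e-05), a difference of -1.59 once the libraries were rescaled by median-of-ratios. TUBA1C, a close relative with broad expression, was at 8.50, 11.4 and 9.12 RPKM there against 174, 184 and 187 RPKM with empty vector. That is 18.8-fold lower (log2 difference -4.11 ± 0.18, limma adjusted p = 5.28e-06; -2.003 after rescaling).

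TUBA1A behaved unlike these relatives, although its coding sequence is nearly that of TUBA1B. It was at 81.2, 81.5 and 91.5 RPKM in the libraries labelled hPRM1 and at 111, 112 and 102 RPKM with empty vector. The groups did not overlap, but the difference did not pass the test (log2 difference -0.35 ± 0.15, limma adjusted p = 0.0729). Relative to the other genes the direction turned: after median-of-ratios rescaling TUBA1A was higher by 1.81 ± 0.18 on the log2 scale (limma adjusted p = 0.000162).

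TUBA4A was the isotype that was higher under every scaling. This alpha tubulin is known for its abundance in platelets and muscle. It stood at 57.4, 67.3 and 71.4 RPKM in the libraries labelled hPRM1 and at no more than 3.61 RPKM with empty vector. The ratio of the means was 34.1 (log2 difference 4.67 ± 0.43, limma adjusted p = 8.33e-05). It was 24.4 without empty vector library 1 and 61.0 without empty vector library 2. In sum the 8 platelet markers were at 335 to 589 RPKM in the libraries labelled hPRM1 against 17.4 to 32.1 RPKM with empty vector. Most of that sum was PF4, at 290, 460 and 416 RPKM. Of the 5 markers tested 4 were called higher, beside 12.9% of all genes, and GP1BB and GP6 overlapped between the groups. The part of platelet RNA in the result was not tested.

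Among the beta members, TUBB, the usual main isotype of dividing cells, was at 48.9, 65.1 and 58.8 RPKM in the libraries labelled hPRM1. Its mean was 24.4-fold lower than with empty vector (log2 difference -4.56 ± 0.23, limma adjusted p = 7.81e-06), and after rescaling the difference was -2.39. TUBB4B was at 16.6, 21.7 and 21.0 RPKM against 261, 273 and 269 RPKM. This isotype was 13.5-fold lower (log2 difference -3.70 ± 0.17, limma adjusted p = 6.13e-06), with -1.56 after rescaling. TUBB6, a divergent beta isotype of many non-neuronal tissues, was at 0.376, 0.702 and 2.93 RPKM against 37.0, 34.1 and 21.2 RPKM, at a log2 difference of -3.88 ± 0.45 (limma adjusted p = 0.000217) and -2.23 after rescaling. The per-gene unequal-variance test called TUBB4B and TUBA1C lower, but not TUBA1B, TUBB or TUBB6, where 27.4% of all genes were called lower.

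TUBB3, the beta isotype used as a marker of neurons, was at 0.114 RPKM in 1 library labelled hPRM1 and listed at 0 in the other 2, against 17.8, 9.30 and 31.3 RPKM with empty vector. Its log2 difference was -4.15 ± 0.42 (limma adjusted p = 0.000121), a value that depends on the 1 RPKM added before taking logs.

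The neighbours TUBB2A and TUBB2B differed from each other in the same libraries. TUBB2B was at 152, 148 and 153 RPKM with empty vector and listed at 0 in the 3 libraries labelled hPRM1, where a count of 0 allowed up to 0.512 to 0.712 CPM (3 reads of each library), and limma called it lower (adjusted p = 1.97e-06). No fold is given against a group at 0. TUBB2A was at 26.5, 20.7 and 26.0 RPKM in the libraries labelled hPRM1 and at 37.6, 38.7 and 41.0 RPKM with empty vector. Its log2 difference of -0.67 ± 0.18 had an adjusted p of 0.0136 in limma and stayed under 2-fold. After median-of-ratios rescaling, however, TUBB2A was higher by 1.45 ± 0.24 (limma adjusted p = 0.00162). Of the 3' end of TUBB2A 56.1% is shared with paralogs, as given above, while that of TUBB2B is not.

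The promoters of this pair are shown because 2 genes with nearly the same coding sequence differed so much in level. They span 250 bases before to 50 after the start of each gene (RefSeq, GRCh38.p14, minus strand), and the capitals mark 3 motifs on either strand, with no overlap between them. One is CCAAT, which reads ATTGG on the other strand. The next is TATAAA, which there reads TTTATA, and the last is GGGCGG, which there reads CCGCCC.
TUBB2A, chr6:3157495-3157794: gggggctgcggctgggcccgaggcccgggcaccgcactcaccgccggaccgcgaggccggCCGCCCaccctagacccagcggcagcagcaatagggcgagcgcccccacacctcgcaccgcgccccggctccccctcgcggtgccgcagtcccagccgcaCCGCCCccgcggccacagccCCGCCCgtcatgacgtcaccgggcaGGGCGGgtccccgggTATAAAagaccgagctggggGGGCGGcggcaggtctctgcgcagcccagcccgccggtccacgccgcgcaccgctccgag
TUBB2B, chr6:3227604-3227903: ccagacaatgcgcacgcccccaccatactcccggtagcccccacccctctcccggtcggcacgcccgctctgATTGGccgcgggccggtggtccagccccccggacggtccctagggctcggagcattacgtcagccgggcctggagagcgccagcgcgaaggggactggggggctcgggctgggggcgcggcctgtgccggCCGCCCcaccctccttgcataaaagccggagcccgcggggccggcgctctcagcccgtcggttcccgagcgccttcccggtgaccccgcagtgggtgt
The promoters were 46.1% identical, against 98.1% for the coding sequences. TUBB2A held 1 TATAAA, no CCAAT and 5 GGGCGG, and TUBB2B held no TATAAA, 1 CCAAT and 1 GGGCGG. Of the 35116 promoters in the table, 11.5% held TATAAA, 34.6% CCAAT and 44.95% GGGCGG. The matches describe letters in this window only.

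**Figure D1:**
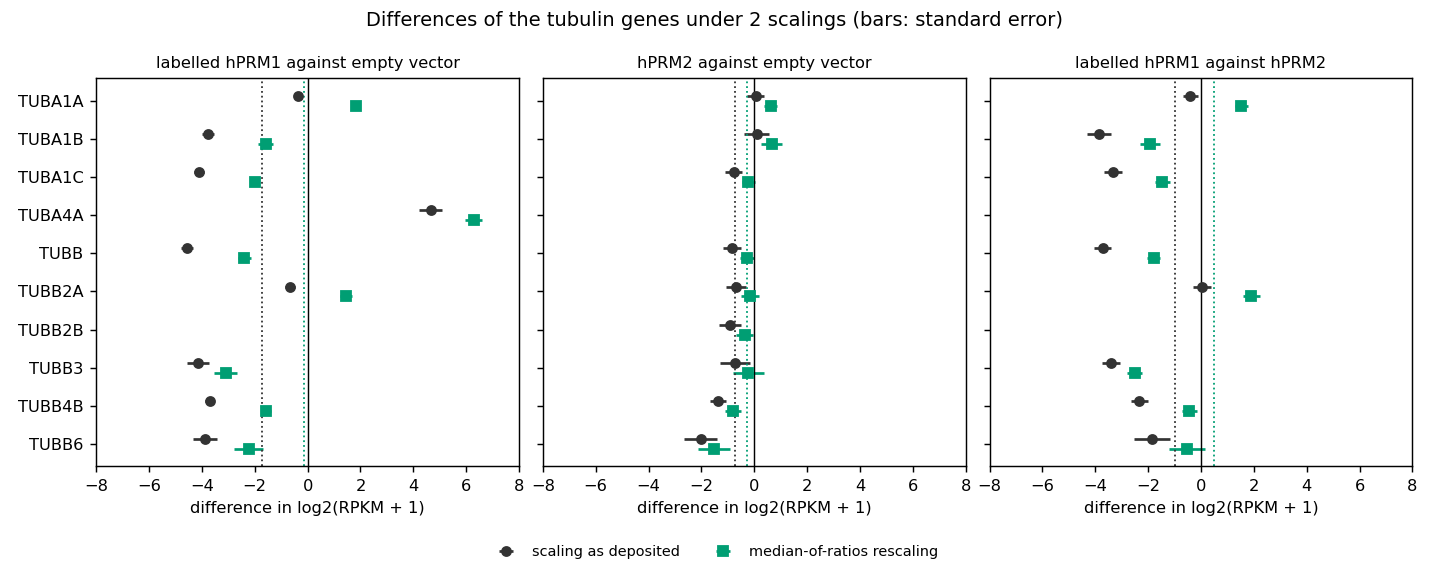
Each symbol is the log2(RPKM + 1) difference of 1 tubulin gene in 1 comparison with its standard error, as deposited (circles) and after median-of-ratios rescaling (squares), and the dotted lines are the medians of all genes tested; genes listed at 0 in a whole group are not drawn. In both comparisons with the libraries labelled hPRM1, TUBA1A and TUBB2A lie to the right of 0 after rescaling, while TUBA1B, TUBA1C, TUBB and TUBB3 stay to the left.

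The make-up of the tubulin RNA was then compared as the share of each isotype in the alpha or the beta total of its own library, a quantity that does not depend on how libraries are scaled. TUBA1B made up 46.3% ± 1.1 (SD, n = 3) of alpha tubulin RPKM in the libraries labelled hPRM1, against 86.3% ± 3.4 with empty vector. TUBA1A held 28.5% ± 0.78 there against 5.09% ± 1.4, and TUBA4A held 22.0% ± 1.3 against 0.0936% ± 0.095, without overlap between groups. The share of TUBA1C was 3.26% ± 0.53 against 8.47% ± 2.0.

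Of beta tubulin RPKM, TUBB held 55.7% ± 3.9 in the libraries labelled hPRM1 against 72.9% ± 4.6 with empty vector. The share of TUBB2A was 23.9% ± 4.7 against 2.08% ± 0.31. TUBB4B had a somewhat larger share in the libraries labelled hPRM1 (19.1% ± 1.0 against 14.3% ± 2.6) although its level was lower. TUBB2B, listed at 0 there, held 8.07% ± 1.3 with empty vector. In all, 9 of 10 members had shares that did not overlap between these groups, 4 higher and 5 lower, and the share of TUBB6 overlapped. These shares have no test across genes. With 3 libraries against 3, a two-sided exact permutation test could not go below 0.1 and was not run.

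The sum of the alpha members was 1793 to 2929 RPKM with empty vector, 280 to 316 RPKM in the libraries labelled hPRM1 and 1434 to 4398 RPKM with hPRM2. The sum of the beta members was 1658 to 2352, 92.5 to 109 and 696 to 1279 RPKM in the same order. The alpha to beta ratio of these sums depends on the gene lengths used and was not computed without them. In RPKM it was 2.89 ± 0.15 in the libraries labelled hPRM1 against 1.16 ± 0.082 with empty vector, without overlap. With hPRM2 it was 2.37 ± 0.95, also above all empty vector libraries, with a spread from 1.61 (library 3) to 3.44 (library 1).

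With hPRM2, none of the 9 isotypes tested passed the test against empty vector, and the shares of 9 of the 10 isotypes overlapped between the groups. The means of 2 members, TUBA1A and TUBA1B, were above those of empty vector and the means of the other 8 were below. Without hPRM2 library 1 the log2 differences of this pair were -0.10 and -0.42, below empty vector too. In limma 3 members (TUBB, TUBB4B and TUBB6) had an unadjusted p under 0.05. The unequal-variance test of each gene called no member, where 0.0686% of all genes were called lower and 0% higher. Of all 13126 genes tested, limma called 1.37% lower and 1.36% higher (0.617% and 1.65% after median-of-ratios rescaling, 0.602% and 1.79% after quantile scaling, with no member called by either). The groups did not overlap for 6 of the 9 tested members, all lower, beside 29.9% of all genes lower and 6.01% higher. The median log2 difference of the members was -0.78 and that of all genes -0.72, and after median-of-ratios rescaling the medians were -0.22 and -0.26.

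TUBA1B was at 4122, 1273 and 1554 RPKM in hPRM2 libraries 1, 2 and 3, on both sides of the empty vector values (log2 difference 0.09 ± 0.47, limma adjusted p = 0.912). TUBA1A was at 140, 87.2 and 116 RPKM and also overlapped (0.06 ± 0.32, limma adjusted p = 0.917). Library 1 was the highest of hPRM2 for both, and for TUBA1C, TUBB, TUBB2A and TUBB2B. That library was unlike the others of its group, with 9652 genes above 0 against 14353 in library 2 and 15633 in library 3. Its estimate of 2650000 reads rests on few low values (81 at 1 read and 20 at 2 reads). TUBA1C was at 136, 73.6 and 117 RPKM, below every empty vector library (-0.78 ± 0.33, limma adjusted p = 0.198).

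TUBB was at 1005, 533 and 848 RPKM with hPRM2, each below the lowest empty vector library. Its log2 difference of -0.84 ± 0.33 had a limma adjusted p of 0.175. TUBB4B was at 98.9, 83.0 and 135 RPKM, against no less than 261 RPKM with empty vector. At -1.36 ± 0.30 it came closest to the threshold (limma adjusted p = 0.0628), and it was called lower in the limma fit of all 9 libraries (adjusted p = 0.0130), as were 12.3% of all genes. TUBB2B was at 130, 46.6 and 82.4 RPKM (-0.92 ± 0.42, limma adjusted p = 0.224). Without hPRM2 library 1, limma called both TUBB2B (-1.27, adjusted p = 0.0412) and TUBB4B (-1.33, adjusted p = 0.0311) lower, where 12.3% of all genes were called lower and 6.17% higher.

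TUBB6 had the lowest log2 difference of the tested members with hPRM2, -2.03 ± 0.62 (limma adjusted p = 0.115), at 5.20, 3.46 and 14.7 RPKM, below all empty vector libraries. TUBB2A was at 30.8, 19.9 and 21.3 RPKM, also below them (-0.71 ± 0.38, limma adjusted p = 0.282). TUBB3, at 9.70, 10.6 and 9.79 RPKM, overlapped (-0.74 ± 0.57, limma adjusted p = 0.422). TUBA4A was listed at 0 in all 3 hPRM2 libraries and was not tested, and at their depth a count of 0 allowed up to 1.13 to 2.36 CPM. With the annotated transcript length its levels with empty vector come to about 0.860, 7.80 and 3.77 CPM, so libraries 2 and 3 lay above that limit and library 1 below it.

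By share, TUBA1B made up 89.8% ± 3.5 of alpha RPKM and TUBB 77.1% ± 1.2 of beta RPKM with hPRM2. TUBB4B held 10.6% ± 2.5 and TUBB2B 8.09% ± 1.8 of beta RPKM. The exception to the overlap of shares was TUBA4A, being listed at 0.

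Set directly against hPRM2, the libraries labelled hPRM1 had 1 isotype called higher (TUBA4A) and 6 called lower (TUBA1B, TUBA1C, TUBB, TUBB2B, TUBB3 and TUBB4B). By the same rule 16% of the 11756 genes tested were called higher and 37% lower. The groups did not overlap for 7 members that were lower and 1 that was higher, beside 43.1% and 19% of all genes. The log2 difference was -3.87 ± 0.46 for TUBA1B (limma adjusted p = 0.000922), -3.32 ± 0.35 for TUBA1C (0.000596), -3.73 ± 0.31 for TUBB (0.000289), -3.41 ± 0.33 for TUBB3 (0.000462) and -2.34 ± 0.31 for TUBB4B (0.00138). TUBB2B and TUBA4A were each listed at 0 in 1 of the groups and were called with adjusted p of 0.00020 and 9.87e-05 in limma. TUBB6 missed the threshold (-1.85 ± 0.67, limma adjusted p = 0.0570). Limma called it lower without hPRM2 library 2 (-2.24, adjusted p = 0.0445) and in the fit of all 9 libraries (adjusted p = 0.0252). In these fits 38.0% and 40.2% of all genes were called lower.

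TUBA1A (-0.41 ± 0.28) and TUBB2A (0.04 ± 0.33) overlapped between the libraries labelled hPRM1 and hPRM2 and were not called. After median-of-ratios rescaling both were higher, by 1.52 and 1.90 on the log2 scale (limma adjusted p = 0.00302 and 0.00351), and TUBB4B was no longer called (-0.44, adjusted p = 0.255). This left 5 members lower and 3 higher, beside 18.3% and 31.1% of genes, and the same members under quantile scaling, beside 21.9% and 26.5%. The median over all genes was -0.97 as deposited and 0.50 after rescaling.

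The other genes of the tubulin pathway were counted in 6 lists (141 genes with the members and the markers, 140 of them matched in the table). In the libraries labelled hPRM1 against empty vector, 59 of the 78 pathway genes tested were called lower and 2 higher, beside 62.5% and 12.9% of all genes. After median-of-ratios rescaling 31 were called lower and 13 higher, beside 29% and 28.9% of all genes. Both pairs of shares are the background for the counts of each list in this comparison. The folding machinery stood lowest: 17 of its 20 genes were called lower and none higher as deposited (14 lower and 2 higher after rescaling), with a median log2 difference of -4.30. Newly made tubulin passes from prefoldin to the chaperonin CCT and on to tubulin cofactors. CCT2, a CCT subunit, was at 12.8, 20.4 and 18.5 RPKM in the libraries labelled hPRM1 and at 1172, 1249 and 1254 RPKM with empty vector (-6.09 ± 0.21, limma adjusted p = 3.29e-06). The prefoldin subunit PFDN4 had a log2 difference of -6.60 ± 0.21 (limma adjusted p = 2.66e-06).

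Among 12 further tubulin genes, 7 were tested, 5 called lower and 1 higher as deposited and 2 lower and 2 higher after rescaling. The higher one under both was TUBB1, the beta tubulin of platelets and megakaryocytes, at 6.52, 16.6 and 10.8 RPKM in the libraries labelled hPRM1 and listed at 0 with empty vector (limma adjusted p = 9.45e-05). With hPRM2 it was at 0, 1.21 and 0.958 RPKM. TUBG1, the gamma tubulin of the centrosome, was at 1.38, 1.40 and 1.97 RPKM against 123, 139 and 173 RPKM (-5.82 ± 0.22, limma adjusted p = 3.77e-06), and its relative TUBG2 was also called lower (-2.96 ± 0.23). Of the 9 genes of the gamma tubulin ring complex, which nucleates microtubules, 6 were called lower, with MZT1 (-4.53) and MZT2A (-4.06) lowest, and after rescaling 3 were called lower and 2 higher. Both counts of lower genes are near the background of 62.5% and 29% of all genes.

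Enzymes that modify tubulin gave 12 called lower and 1 higher of 17 tested, and 5 lower and 4 higher after rescaling, again near those shares of all genes. The higher one as deposited was TTLL3, a tubulin glycylase, at 8.68, 10.5 and 8.15 RPKM in the libraries labelled hPRM1 against 1.88, 2.12 and 0.877 RPKM (1.97 ± 0.27, limma adjusted p = 0.000473). AGBL5, a carboxypeptidase that trims glutamate side chains of tubulin (-3.88), and TPGS2, a subunit of the polyglutamylase complex (-3.51), were lowest. The 3 genes of tubulin autoregulation were all called lower as deposited, among them TTC5 (-1.71 ± 0.31) and CNOT11 (-1.53 ± 0.27), and none of the 3 was called after rescaling. Of 22 microtubule-associated genes 16 were called lower and none higher, and after rescaling 7 lower and 3 higher, counts of lower genes that are also near the 62.5% and 29% of all genes. The spindle protein TPX2 (-6.32 ± 0.23) and the microtubule-depolymerising kinesin KIF2C (-5.46 ± 0.24) were lowest.

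With hPRM2, none of the 75 pathway genes tested was called against empty vector in limma, and 20 had an unadjusted p under 0.05, with a lowest adjusted p of 0.0647. The folding genes had a median log2 difference of -0.06 and the microtubule-associated genes -1.01, beside -0.72 for all genes. Of the 19 folding genes tested, 4 lay above all empty vector libraries and 3 below, beside 6.01% and 29.9% of all genes. CCT2 was among the higher ones, at 1474, 1522 and 1479 RPKM with hPRM2. PFDN4 was among the lower ones, at 52.9, 44.1 and 71.8 RPKM.

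In the direct comparison with hPRM2, 39 of 67 pathway genes were called lower and 1 higher as deposited, beside 37% and 16% of all genes. After rescaling 28 were called lower and 14 higher, beside 18.3% and 31.1% of all genes. Folding again stood lowest with 16 of 18 called lower (14 after rescaling), and CCT2 (-6.38 ± 0.26) and CCT4 (-6.29 ± 0.37) led it. TUBB1 was called higher (2.83 ± 0.53), and TUBG1 (-4.85 ± 0.35) and TUBE1, the epsilon tubulin of centrioles (-2.38 ± 0.47), lower, the last not after median-of-ratios rescaling. MZT2A (-3.89) and MZT1 (-3.75) were 2 of 3 called in the ring complex. VASH2, an enzyme that removes the last tyrosine of alpha tubulin (-5.33 ± 0.70), and AGBL5 (-3.93 ± 0.93) were lowest of 8 called lower among the modifying enzymes. TPX2 (-4.94 ± 0.49) and the microtubule destabiliser STMN1 (-4.76 ± 0.39) were lowest of 10 called lower among the microtubule-associated genes. None of the 3 autoregulation genes was called or had an unadjusted p under 0.05 in limma as deposited, and 2 were called higher after rescaling.

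**Figure D2:**
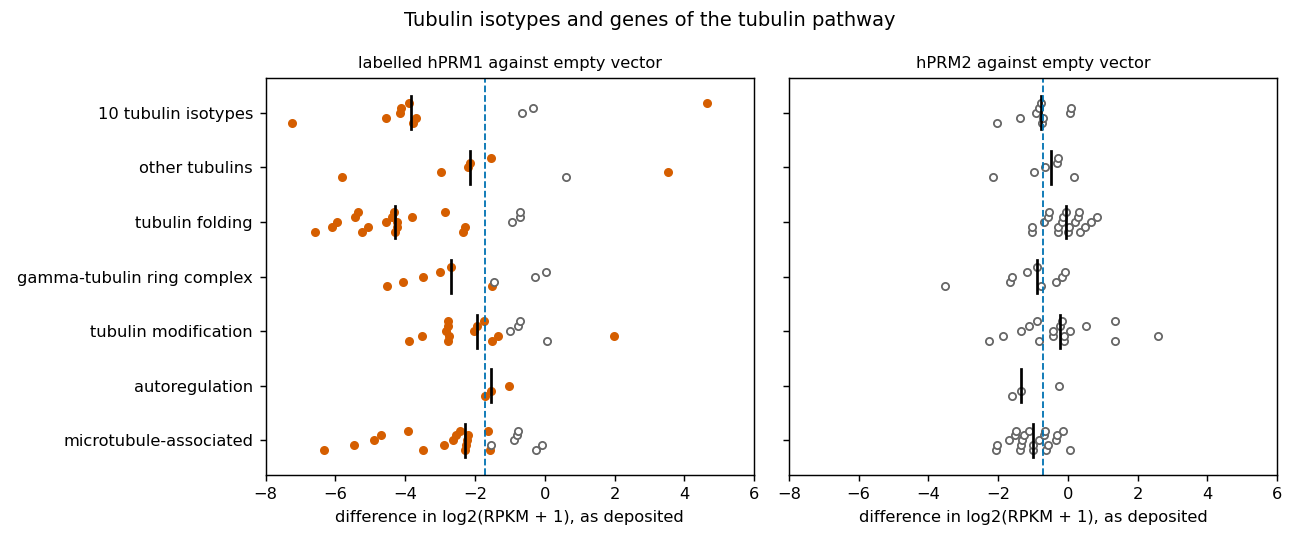
Each point is 1 gene with its log2(RPKM + 1) difference as deposited, filled where called, for the 10 tubulin isotypes and 6 lists of pathway genes; black bars are list medians and the dashed line is the median of all genes tested. Against empty vector, the folding genes sit lowest in the libraries labelled hPRM1 (median -4.30) and near 0 with hPRM2 (median -0.06), where no gene is filled.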

How the data were processed

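RNA of 9 libraries was sequenced from 3' ends. The authors deposited 1 table of RPKM values for 57338 genes, without counts: per the labels and methods, reads were trimmed with cutadapt, aligned with STAR and counted with Salmon on hg38 (submitters' processing notes, versions not given in the sources used here), mitochondrial genes were removed, and counts were divided by library total and gene length. Symbols matched 98.6% of identifiers, and 0 further sample columns were left unused. The members, gene lists and tests were chosen with earlier results of these data known.

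Genes with at least 1 RPKM in at least 3 of the 6 libraries compared were tested on log2(RPKM + 1) with limma 3.58.1 in R 4.3.3 (trend and robust eBayes, no block), with Benjamini-Hochberg adjustment over all genes tested. Calls required a change of 2-fold or more with an adjusted p up to 0.05. Differences are on this log2 scale, which understates changes of low genes. The procedure was tested on simulated data with changes in both directions in few genes. That setting does not cover a shift of most genes. All 10 members were named, and of each pathway list the 2 largest rises and falls among called genes whose groups did not overlap. The settings varied were the pseudocount (0.1 or 5), the filter (none, or 10 RPKM), the scaling (median-of-ratios or quantile), the libraries in the fit (all 9, or each left out), a block for replicate number, a per-gene unequal-variance test and the fold threshold (none). Reads on genes were estimated from the steps of low values in single-transcript genes, with 250 bases subtracted from lengths. Floors are 3 reads and cover counting error only. Coding sequences and identities came from GENCODE 29 with Biopython 1.88 in Python 3.11.15, and promoters from RefSeq. Of the list genes, TBCE had no single matching identifier and was left out. Tail sequences of the alpha members are not reported here.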

Additional observations from a re-analysis of the deposited data

How the results depend on the processing

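Members called higher in the libraries labelled hPRM1 against empty vector numbered 3 in place of 1 under median-of-ratios and under quantile scaling, and members called lower numbered 3 in place of 7 under the per-gene unequal-variance test, where 27.4% of all genes were called lower in place of 62.5%. The 4 lost were TUBA1B, TUBB, TUBB3 and TUBB6, whose log2 ratios of means under that test (1 added) were -3.82, -4.59, -4.30 and -3.76. With hPRM2 against empty vector, 1 member (TUBB4B) was called lower in the fit of all 9 libraries and 0 to 2 when 1 library was left out, with 2 (TUBB2B and TUBB4B) without hPRM2 library 1. Of all 13126 genes, 1618 were called lower in the fit of all 9 and 2 to 1619 when 1 library was left out, against 180 in the fit reported. Against hPRM2, the libraries labelled hPRM1 had 3 members higher in place of 1 under both scalings. Under the per-gene test 0 were higher and 1 lower (TUBB3), where 0.987% and 0.876% of all genes were called. When 1 library was left out 6 to 7 were lower, beside 27.7% to 47.3% of all genes. Directions turned under a scaling for TUBA1A (1.81 under median-of-ratios and 1.42 under quantile scaling against empty vector, 1.52 and 1.39 against hPRM2) and TUBB2A (1.45 and 1.01 against empty vector) in the libraries labelled hPRM1. These scalings moved the median of all genes by 1.60 and 1.34 against empty vector and by 1.47 and 1.09 against hPRM2. Among differences that were not called, TUBA1B with hPRM2 went from 0.09 to -0.44 under quantile scaling, -0.077 without empty vector library 2 and -0.42 without hPRM2 library 1, TUBA1A from 0.06 to -0.10 without hPRM2 library 1, and TUBB2A against hPRM2 from 0.04 to -0.0064 to -0.076 in 4 of the 6 fits without 1 library. Over all fits without 1 library, these 3 differences ran from -0.42 to 0.42, -0.10 to 0.24 and -0.076 to 0.23. The cause of the changes in this paragraph was not tested. Counted as reads with the annotated length in place of RPKM, shares in the order empty vector, labelled hPRM1 and hPRM2 were 79.9%, 40.2% and 85.5% for TUBA1B, 14.4%, 5.23% and 8.60% for TUBA1C, 80.1%, 67.3% and 83.4% for TUBB, 1.37%, 17.3% and 1.55% for TUBB2A and 9.66%, 14.2% and 7.03% for TUBB4B, and 25.4% for TUBA4A in the libraries labelled hPRM1; the overlap of groups was the same for every member.

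The replicate numbers of the titles did not pair the libraries (correlations of same-numbered deviations from -0.08 to 0.11). With the number as a replicate block, 1 member was called higher and 7 lower in the libraries labelled hPRM1 against empty vector. This stands beside 13.1% and 62.9% of all genes. With hPRM2 the counts were 0 and 0, beside 0.373% and 0.0609%. In the direct comparison they were 1 and 7, with TUBB6 added, beside 15.3% and 34.2%. With 1270000 to 2650000 reads, the hPRM2 libraries limit what can be seen of TUBA4A, TUBB3 and TUBB6.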
